A study of Rattus norvegicus with 9 samples.

Results

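miR-191a-5p and miR-425-5p are the leading products of 2 miRNA hairpins that lie next to each other in the rat genome. They were taken by name from the deposited count matrix, where they make up 2 of 567 mature miRNAs. Both passed the filter on low counts and both had counts in all 9 libraries. The cluster was picked with the counts of these same libraries already known, including the low level of miR-191a-5p in late rotenone serum. The levels of both members are therefore given as a description, with fold changes and errors but no p-value.

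The study followed serum small RNA in adult male Wistar rats, labelled wild type, in which rotenone was used to model Parkinson's disease. Rotenone blocks mitochondrial complex I and was injected into the peritoneum at 2.0 mg per kg per day. The early group (EPD) was sampled at 10 days and the late group (LPD) at the terminal stage, past 40 days. The remaining rats served as controls (Control), and each group has 3 libraries. The sources used here do not say what the controls were injected with, and the treatment label is the same in all 9 samples. Serum was taken after the blood had clotted, so it also holds RNA that blood cells release. A lower serum level cannot separate fewer releasing cells from less RNA per cell. Levels here are also relative to the other miRNAs of a library, so a level can fall where others take more of the counts.

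In mammals miR-191 and miR-425 come from a shared primary transcript within the gene Dalrd3. miR-191 is abundant in blood cells, is known for its part in the maturation of red cell precursors, and has been a common reference miRNA in serum and plasma assays. miR-425 is known to repress the atrial natriuretic peptide gene.

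The mature sequences below, from RefSeq (GRCr8), show what a count of each product stands for. The seed, bases 2 to 8 and the part that pairs with target mRNAs, is in capitals.
miR-191a-5p: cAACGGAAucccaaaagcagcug
miR-191a-3p: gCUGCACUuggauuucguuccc
miR-425-5p: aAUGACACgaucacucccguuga
miR-425-3p: aUCGGGAAuaucguguccgcc
miR-191b: gAACGAAAuccaagugcagcu

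The members share no seed, and neither seed occurs in any other of the 693 mature rat miRNA names in that table. Both are 23 bases long, with a GC content of 52.2% in miR-191a-5p and 47.8% in miR-425-5p.

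The hairpins below are shown because every product above except miR-191b is one of their arms, which are in capitals.
Mir191: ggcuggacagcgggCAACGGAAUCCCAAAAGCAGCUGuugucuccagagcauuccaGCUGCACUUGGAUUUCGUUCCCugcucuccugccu
Mir425: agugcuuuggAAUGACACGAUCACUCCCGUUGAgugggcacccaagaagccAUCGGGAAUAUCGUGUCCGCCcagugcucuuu

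In GRCr8 Mir191 lies at chr8:118142627-118142717 and Mir425 at chr8:118143084-118143166, both on the plus strand. The gap between them is 366 bases. Both hairpins fall within the span of Dalrd3, on the strand of that gene, but 1040 bases or more before the Dalrd3 transcript start that the RefSeq promoter table uses. The tables used here do not say whether they are exonic or intronic. The authors' build was mRatBN7.2, and none of their values was placed by these coordinates. miR-191b is annotated on the minus strand across from the 3p arm of Mir191. It shares 20 positions with that arm and matches the reverse complement of the hairpin.

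Depth differed between the groups. Control libraries held 1108167 to 1539557 counts and EPD libraries 1136537 to 1668807, against 132609 to 305019 in LPD. The LPD libraries also had few miRNAs with low counts: 3 to 39 had 1 to 9 counts, against 127 to 157 in the other libraries. In Control 2 the liver miRNA miR-122-5p took 44.3% of the counts, so the scaling between libraries (TMM) was set by the remaining miRNAs.

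miR-191a-5p was among the most abundant miRNAs of Control and EPD serum and stood low in LPD serum. Its level in CPM, counts scaled to a common library size with the TMM factors, was 39002, 66177 and 44535 in the Control libraries. In EPD it was 66099, 48433 and 132466, and in LPD 12632, 10607 and 6431. All 3 LPD libraries lay below every other library, while EPD and Control overlapped. Over all 294 miRNAs tested, 41.8% lay entirely lower in LPD than in Control and 45.6% entirely lower than in EPD, and 12.9% did not overlap between EPD and Control. By counts within a library it ranked between 2 and 5 in Control and EPD, and between 17 and 29 in LPD.

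The group means were 49905 ± 14361 CPM in Control, 82333 ± 44306 in EPD and 9890 ± 3162 in LPD (mean ± SD, n = 3 each). The fitted log2 fold change of LPD against Control was -2.33 (SE 0.45), a level 5.05-fold lower. LPD against EPD gave -3.06 (SE 0.46), 8.32-fold lower, with the same LPD libraries entering both. EPD against Control gave 0.72 (SE 0.43). This last value rested on EPD 3, which held the highest level of all, and was 0.22 without that library.

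Taken as a plain share of the counts, with no scaling, miR-191a-5p made up 4.59 ± 0.37% in Control, 8.17 ± 4.34% in EPD and 1.04 ± 0.27% in LPD. The share was 4.32% in Control 1 (95% Wilson interval 4.29 to 4.36%), 4.43% in Control 2 and 5.01% in Control 3. It was 5.80, 5.54 and 13.2% in EPD and 1.25, 1.12 and 0.736% in LPD. The order of the groups was the same on both scales. Control 2, highest of the controls in CPM, was in the middle of them by share.

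miR-425-5p, the neighbour, did not follow. Its level was 918.8, 969.0 and 667.5 CPM in Control, 742.3, 661.4 and 763.0 in EPD, and 844.1, 611.5 and 876.3 in LPD. All 3 groups overlapped, and the highest of the 9 libraries was 1.59-fold above the lowest. The means were 851.8 ± 161.6, 722.2 ± 53.7 and 777.3 ± 144.5 CPM (SD, n = 3 each). The fitted log2 fold changes were -0.24 (SE 0.32) for EPD against Control, -0.13 (SE 0.33) for LPD against Control and 0.11 (SE 0.33) for LPD against EPD. The order of these means does not hold against the spread within groups.

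**Figure D1:**
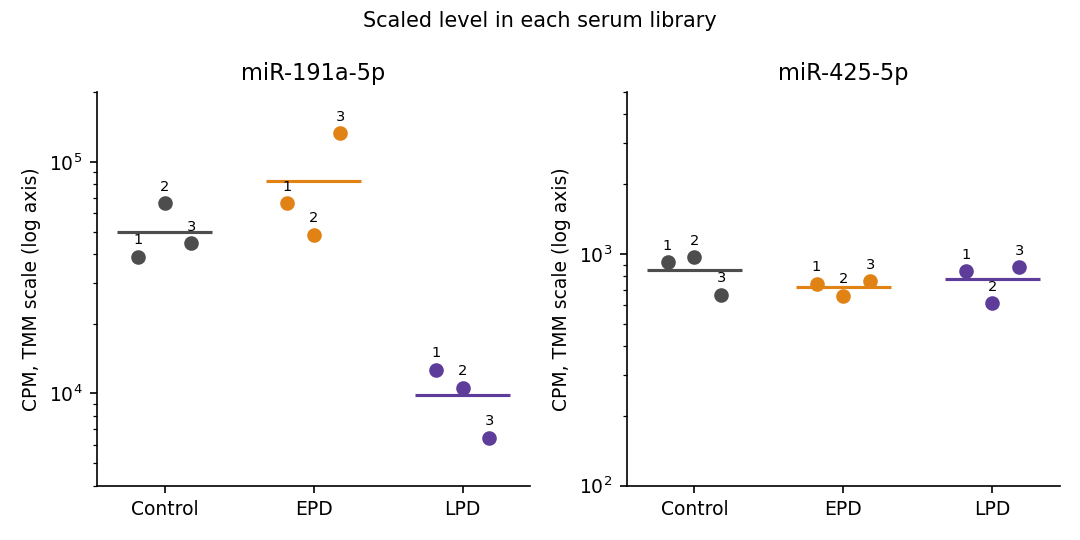
CPM on the TMM scale (log axis, the same fold range in both panels) of miR-191a-5p and miR-425-5p in each library, numbered by replicate; horizontal lines are group means. The 3 LPD libraries sit between 6431 and 12632 CPM for miR-191a-5p, below all others, while miR-425-5p stays between 611.5 and 969.0 CPM in all 9.

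In the fit over all 294 miRNAs tested (edgeR quasi-likelihood, Benjamini-Hochberg adjusted p under 0.05), 1 of the 2 members was called in LPD against Control, beside 37.1% of all miRNAs. That member was miR-191a-5p, called lower, beside 32.7% called lower. In LPD against EPD 1 of 2 was called lower, miR-191a-5p again, beside 36.7% called in either direction and 32.7% lower. Between EPD and Control 0 of 2 were called, beside 0% of all miRNAs. At an unadjusted p under 0.05 stood 0 of 2 members there, and 11 of 294 miRNAs. DESeq2 called 1 miRNA and limma-voom 0. Since the cluster was chosen with these contrasts known, nothing is read from the members' counts of calls.

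Among the 124 miRNAs with counts in every library, 25.8% lay entirely lower in LPD than in Control. Within those 124, the fitted change of miR-191a-5p in LPD against Control was the 10th lowest and that of miR-425-5p the 67th, around a median of -0.21. In LPD against EPD miR-191a-5p was the 5th lowest and miR-425-5p again the 67th. Between EPD and Control they ranked 115th and 39th from the lowest.

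The ratio of the members within a library does not depend on how libraries are scaled to each other. In Control 42.5, 68.3 and 66.7 counts of miR-191a-5p were found for each count of miR-425-5p. In EPD there were 89.1, 73.2 and 173.6, and in LPD 14.96, 17.35 and 7.34. All LPD libraries lay below all Control libraries, which in turn lay below all EPD libraries, with 68.3 in Control 2 and 73.2 in EPD 2 the nearest pair across that border.

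The mean log2 ratio, with 0.5 counts added to each member, was 5.85 ± 0.39 in Control, 6.70 ± 0.65 in EPD and 3.63 ± 0.66 in LPD (SD, n = 3 each). LPD stood 2.23 lower than Control on the log2 scale, a 4.68-fold drop of the ratio, and EPD 0.85 higher than Control. The gap between EPD and Control was 0.48 without EPD 3, so that library carried a large part of it. The gap between LPD and Control ranged from -2.47 to -1.85 over the 6 ways of leaving out 1 library.

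The LPD end of this ratio rested on little material. From the number of miRNAs without any count, and taking the mean profile of Control and EPD as that of the serum, LPD 1, 2 and 3 held an estimated 8315, 4279 and 10755 molecules. That is 36.7, 49.1 and 12.3 counts per molecule, against 1.07 to 3.09 in the other libraries. The 255, 136 and 133 counts of miR-425-5p in LPD would then stand for 6.95, 2.77 and 10.8 molecules, and the 3816, 2359 and 976 counts of miR-191a-5p for 104.0, 48.1 and 79.2. The estimate counts every missing miRNA as missed by sampling, so miRNAs truly lower in LPD would make it too small. LPD libraries also held miRNAs with 1 count, fewer than 1 estimated molecule would give, so the estimate is rough. Whether the counts in LPD repeat molecules was not tested otherwise. Where they do, intervals computed from counts are too narrow.

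With these rough molecule estimates as the sample, miR-425-5p made up 6.26% of the 2 members together in LPD 1 (95% exact interval 2.55 to 12.5%). It made up 5.45% in LPD 2 (1.04 to 15.7%) and 12.0% in LPD 3 (6.09 to 20.6%). In Control it made up 2.30% (2.17 to 2.44%), 1.44% (1.27 to 1.63%) and 1.48% (1.38 to 1.57%). The intervals of LPD 1 and LPD 3 lay above those of all controls, whereas that of LPD 2 included them. In EPD the share was 1.11% (1.013 to 1.215%), 1.35% (1.226 to 1.477%) and 0.573% (0.52 to 0.6293%). The interval of EPD 2 overlapped those of Control 2 and Control 3.

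**Figure D2:**
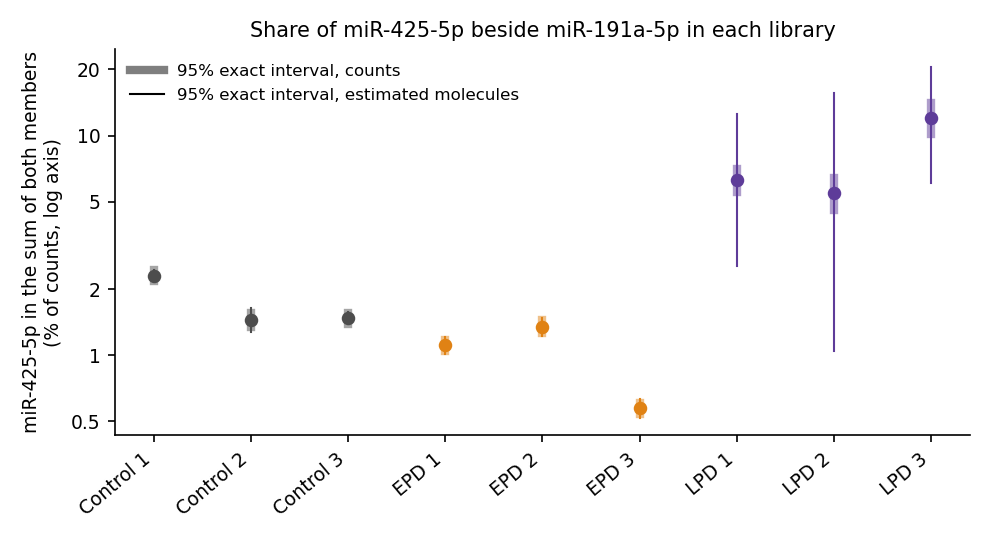
Share of miR-425-5p in the summed counts of both members (%, log axis) for each library, with 95% exact intervals from the counts (thick bars) and from the estimated molecules (thin bars). The LPD libraries stand at 5.45 to 12.0% and the others at 0.573 to 2.30%; the thin bar of LPD 2 reaches down to 1.04%.

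The other arms of both hairpins, the 3p arms, are the strands less often kept after processing. They are not members and could be tested. miR-191a-3p had 92.8, 120.0 and 134.4 CPM in Control, 149.5, 124.7 and 209.6 in EPD, and 0, 143.9 and 52.7 in LPD. Behind the LPD values stood 0, 32 and 8 counts. LPD 1 and LPD 3 lay below all other libraries, and LPD 2 lay within their range.

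The log2 fold change of miR-191a-3p was -0.83 (SE 1.20, edgeR adjusted p = 0.631) in LPD against Control, -1.31 (SE 1.21, adjusted p = 0.453) in LPD against EPD and 0.48 (SE 1.17, adjusted p = 0.995) in EPD against Control. Without LPD 1 the first of these turned to 0.055, and over the 9 ways of leaving out 1 library it reached -2.31 (without LPD 2), and the second ran from -2.87 (without LPD 2) to -0.51 (without LPD 1). miR-425-3p had 83.8, 140.4 and 149.4 CPM in Control, 129.1, 106.3 and 198.3 in EPD, and 72.8, 107.9 and 0 in LPD, from 22, 24 and 0 counts. Its log2 fold changes were -1.02 (SE 1.09, adjusted p = 0.509), -1.24 (SE 1.09, adjusted p = 0.426) and 0.21 (SE 1.06, adjusted p = 0.995) in the same order, the last turning to -0.063 without EPD 3. Without LPD 3 the first became -0.22 and the second -0.51, and without LPD 2 they were -1.62 and -1.91. No 3p arm passed the test in any comparison, which, with SEs above 1, does not show that they stayed level.

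Each arm pair was uneven to a different degree. In Control there were 420.4, 551.4 and 331.3 counts of miR-191a-5p for each count of miR-191a-3p, and in EPD 442.0, 388.3 and 632.1. In LPD 2 there were 73.7 and in LPD 3 122.0, while LPD 1 had no count of the 3p arm. At the ratios seen in Control, LPD 1 would have given 6.92 to 11.5 counts of miR-191a-3p. That is less than the 36.7 counts of 1 estimated molecule there, so by that estimate its 0 counts could not show an absence. The 32 and 8 counts of LPD 2 and 3 also came to less than 1 estimated molecule each. A miRNA with counts takes at least 1 molecule, so the estimate is too rough at this level.

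miR-425 was far less uneven. In Control 11.0, 6.90 and 4.47 counts of miR-425-5p were found for each of miR-425-3p, in EPD 5.75, 6.23 and 3.85, and in LPD 1 and 2 11.6 and 5.67. LPD 3 had no count of the 3p arm. miR-191b, on the opposite strand, had 3 counts in Control 2, 6 in EPD 1, 1 in EPD 3 and none elsewhere, and did not pass the filter. A count of 0 allows up to 3 counts in a library if each count is a separate molecule, and more where counts repeat molecules.

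miR-191 has served as a reference in serum work, so its steadiness was set against that of 26 miRNAs used for the same purpose, a list written from general knowledge. Over the 9 libraries the SD of log2 CPM was 1.45 for miR-191a-5p and 0.23 for miR-425-5p, the latter 0.15 without Control 2. From the steadiest of the 124 miRNAs with counts in every library, miR-425-5p ranked 2nd and miR-191a-5p 106th. The rank of miR-191a-5p takes in the low LPD level that was known when the cluster was picked. That of miR-425-5p takes in LPD levels from an estimated 6.95, 2.77 and 10.8 molecules. So few molecules would tend to spread more than 0.23, which was not tested. The median SD was 0.75 over the 124 and 0.59 over the 23 listed references among them. The steadiest of all was miR-30e-5p, from that list (0.14). These 23 references had a lower SD than miR-191a-5p, the highest being miR-30c-5p (1.12). The 3 references left out had no count in some LPD libraries, miR-484 and miR-151-5p in all 3 and miR-222-3p in 2, so the LPD levels themselves decided which references were compared.

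Over the 6 Control and EPD libraries the SD of miR-191a-5p was 0.63, 88th from the steadiest, beside a median of 0.45. That value rested on EPD 3, without which it was 0.34, 37th, beside a median of 0.46. miR-425-5p stood at 0.23, 12th, over the 6 libraries. For miR-191a-5p the highest library, EPD 3, was 20.6-fold above the lowest, LPD 3.

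**Figure D3:**
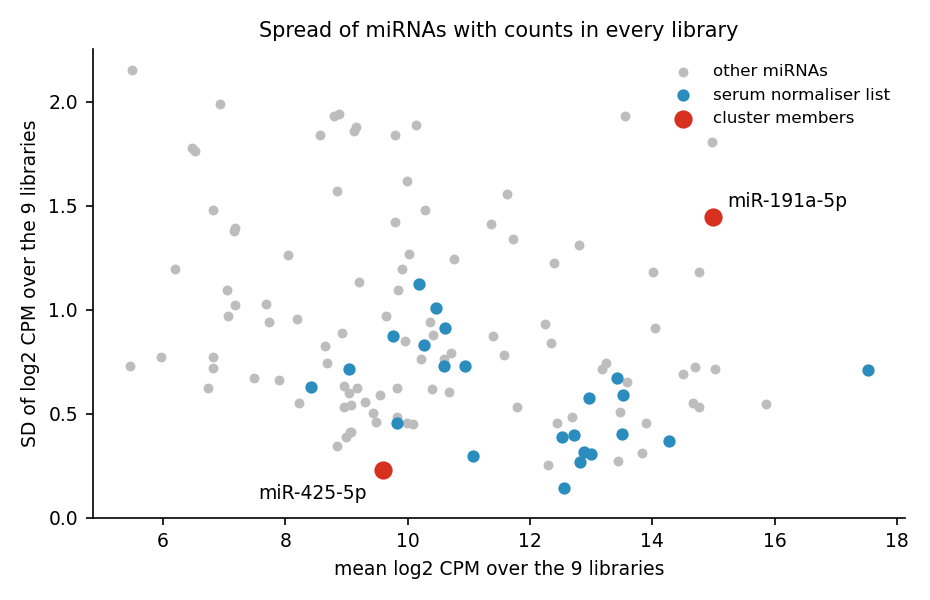
SD of log2 CPM over the 9 libraries against the mean log2 CPM, one point for each of the 124 miRNAs with counts in every library. miR-425-5p lies near the lower edge (0.23) and miR-191a-5p, among the most abundant, lies above the 23 listed references plotted (1.45); 3 more, at 0 in 2 or 3 LPD libraries, are not plotted.

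Of the 26 listed references, all tested, 3 were called higher and 4 lower in LPD against Control, with a median log2 fold change of -0.26. The median was -1.04 over all 294, but -0.21 over the 124 with counts in every library, to which 23 of the references belong. Beside those 124 the references did not stand higher. Higher were miR-423-5p (1.31, SE 0.36, edgeR adjusted p = 0.0178), let-7a-5p (1.24, SE 0.31, adjusted p = 0.0126) and let-7d-5p (1.23, SE 0.32, adjusted p = 0.0149). Lower were miR-152-3p (-1.97, SE 0.33, adjusted p = 0.00522) and miR-186-5p (-1.28, SE 0.39, adjusted p = 0.0266), and also miR-484 and miR-151-5p, which had no count in any LPD library. The call of miR-423-5p was lost without Control 1, Control 3 or LPD 2 (adjusted p = 0.0626 to 0.0644) and that of let-7d-5p without Control 3 (0.0536) or LPD 2 (0.0510). miR-186-5p was lost without any 1 of the Control or LPD libraries (0.0620 to 0.0901) and in 7 other settings, among them the replicate block (0.0668). On counts per estimated molecule, chosen after seeing the data, miR-423-5p (0.0637), let-7d-5p (0.0729), miR-186-5p (0.0881), miR-484 (0.429) and miR-151-5p (0.326) were not called. With only the 2 groups fitted miR-423-5p was lost too (0.0650). In LPD against EPD 3 were called higher and 6 lower, with a median of -0.26, beside -0.92 over all 294 and -0.09 over the 124. Between EPD and Control none of the 26 passed (0 with DESeq2 and 0 with limma-voom), although for 2 the unadjusted p was under 0.05. These counts stand beside 4.42% higher and 32.7% lower over all miRNAs in LPD against Control, 4.08% and 32.7% in LPD against EPD, and 0% in EPD against Control.

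Scaling a table to 1 reference miRNA shifts every other miRNA by the same amount. The mean log2 level of miR-191a-5p differed by -2.35 between LPD and Control, and that of miR-425-5p by -0.13. The median difference of the 122 other miRNAs with counts in every library was -0.43 on the TMM scale and by that arithmetic 1.93 relative to miR-191a-5p and -0.29 relative to miR-425-5p. This restates the members' own levels and shows nothing about the other miRNAs.

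Other miRNAs whose hairpins lie close together give a setting for the split between the members. Among hairpins on the same strand less than 10000 bases apart, with 1 locus per miRNA and the leading arms of both counted in every library, there were 13 such pairs, chosen by a rule added after the values were seen. The size of the change of the log2 ratio between LPD and Control had a median of 0.96. miR-191a-5p and miR-425-5p came second with 2.22 (here with no prior count added), from a ratio of 5.85 in Control to 3.63 in LPD. The smooth muscle pair miR-145-5p and miR-143-3p came first with 2.39. The smallest was the pair miR-25-3p and miR-93-5p (0.044). Some pairs share a miRNA, and the 2 changes from Control share the Control libraries.

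From Control to EPD the ratio of the cluster changed by 0.85, toward more miR-191a-5p, the opposite direction to LPD. For miR-145-5p and miR-143-3p the changes were 0.55 in EPD and -2.39 in LPD. Opposite signs were also seen for miR-27a-3p and miR-23a-3p (0.53 in EPD, -1.22 in LPD) and for miR-497-5p and miR-195-5p (0.54, -0.92). The pair miR-141-3p and miR-200c-3p had -0.36 and 1.28. In the remaining pairs both changes had the same sign. None was tested. The SD of the log2 ratio over the 6 Control and EPD libraries was 0.67 for the cluster and 0.57 for miR-145-5p and miR-143-3p. This SD includes the difference between Control and EPD.

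**Figure D4:**
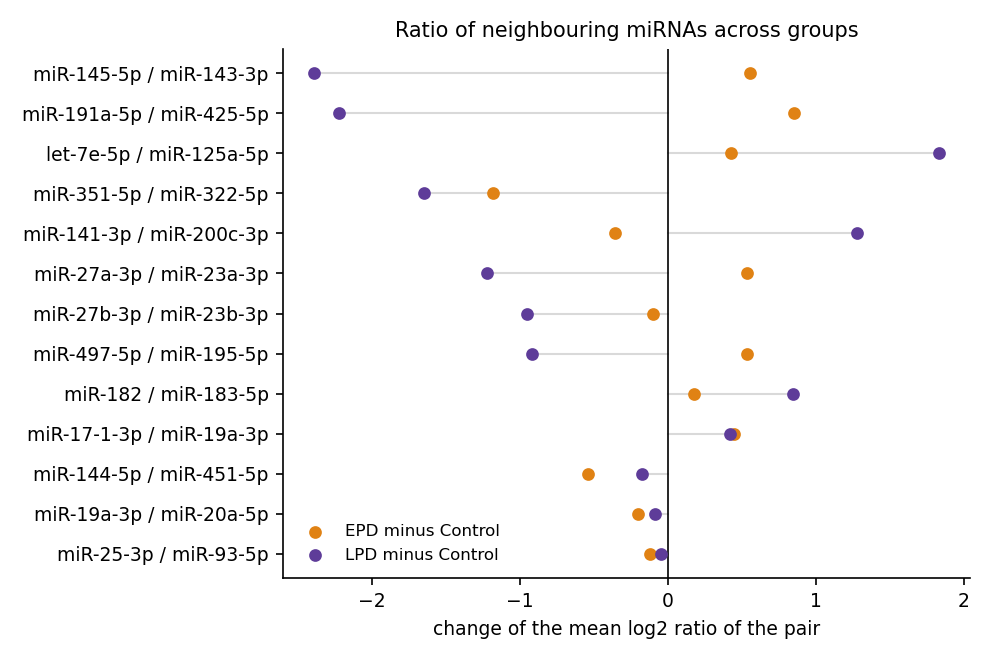
Change of the mean log2 ratio between neighbouring miRNAs from Control to EPD and from Control to LPD, for 13 pairs ordered by the size of the change in LPD. miR-191a-5p over miR-425-5p falls by 2.22 in LPD and stands 0.85 above Control in EPD.

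Across the 9 libraries the pattern of miR-425-5p was not that of miR-191a-5p. Likeness was measured as the root mean square difference of log2 CPM, each miRNA centred on its own mean, over 9 libraries and 123 candidates. The members were 1.38 apart, a distance that takes in the low LPD level of miR-191a-5p known when the cluster was picked. miR-425-5p was the 58th most similar miRNA to miR-191a-5p, and miR-191a-5p the 105th most similar to miR-425-5p. All points share the same libraries, depth and scaling.

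The 5 miRNAs most like miR-191a-5p were miR-339-5p (0.45), miR-125b-5p (0.58), miR-29a-3p (0.67), miR-128-3p (0.73) and miR-205 (0.74). miR-339-5p had 2392 ± 1348 CPM in Control, 1995 ± 649.2 in EPD and 264.5 ± 104.3 in LPD. miR-128-3p, a miRNA enriched in brain, had 6705 ± 2248, 8448 ± 5582 and 3005 ± 719.8. In each of the 5, all LPD libraries lay below all Control libraries, which the choice by likeness favours.

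The 5 most like miR-425-5p were miR-30a-5p (0.22), miR-24-3p (0.23), miR-23a-3p (0.25), miR-26b-5p (0.26) and miR-30e-5p (0.28). Of the 5, miR-24-3p, miR-23a-3p and miR-30e-5p are in the reference list. miR-30a-5p had 5703 ± 1507 CPM in Control, 4391 ± 220.0 in EPD and 5197 ± 659.6 in LPD. miR-24-3p had 7913 ± 2341, 7326 ± 889.6 and 6794 ± 1275.

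miRNAs of like abundance went various ways. The 4 nearest to miR-191a-5p in mean log2 CPM over the controls were miR-21-5p, miR-199a-3p, miR-29a-3p and miR-140-3p. Of these 3 fell in LPD against Control (edgeR adjusted p = 0.00522, 0.00828 and 0.00522 for the last 3), beside 32.7% of all 294 miRNAs tested. The candidates were drawn from the 124 with counts in every library, of which 25.8% lay entirely lower in LPD than in Control. That share goes by the overlap of groups and not by calls. By overlap the same 3 lay entirely lower, and miR-21-5p did not. miR-21-5p, induced by inflammation and growth signals, had 0.67 (SE 0.39, adjusted p = 0.226). Nearest to miR-425-5p were miR-22-3p, miR-155-5p, miR-200c-3p and miR-7a-5p. Of these miR-200c-3p, of epithelial cells, fell (-2.81, SE 0.79, adjusted p = 0.0205) although its groups overlapped, a call lost with the replicate block (0.0669), with only the 2 groups fitted (0.0892), with limma-voom (0.192) and without any 1 of Control 1, EPD 1, LPD 1 and LPD 3 (0.0520 to 0.0851). The other 3 did not pass, with adjusted p of 0.229 to 0.580.

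Lists of miRNAs from blood cells and liver were examined beside these levels. Of the erythrocyte list 12 of 12 miRNAs were tested in LPD against Control, of which 2 were called higher and 3 lower. Their median log2 fold change was 0.15, beside -1.04 over all 294 and -0.21 over the 124 with counts in every library. Whether a list stands above or below the background can depend on which of these 2 medians is used. Their summed level ran from 98339 to 187492 CPM in Control, 173280 to 434329 in EPD and 247430 to 391768 in LPD. Most of each LPD sum was 1 miRNA, miR-16-5p, with 214920 to 323681 CPM there and 76866 to 158483 in Control. The red cell miRNA miR-451-5p had counts in all libraries, and miR-96-5p alone of the list had none in LPD.

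Of the leukocyte list 1 of 12 was called higher and 5 lower (median -0.51), and its sum overlapped between LPD (105161 to 125563 CPM) and Control (102592 to 172427), with 171908 to 204628 in EPD. Of the platelet list 14 of 16 were tested, with 3 called higher and 3 lower (median 0.083). It summed to 159037 to 174682 CPM in Control, 138545 to 161976 in EPD and 171963 to 247595 in LPD. Its miR-28-5p was at 0 in LPD, while miR-223-3p, abundant in platelets and myeloid cells, had 35976 to 61409 CPM there. The level of miR-223-3p was 13683 to 35021 CPM in Control and 32621 to 49275 in EPD. Of the liver list 11 of 12 were tested, with 0 called higher and 3 lower (median -1.68). It summed to 117509 to 777667 CPM in Control, the highest being Control 2, to 88010 to 121030 in EPD and to 92742 to 215163 in LPD, where miR-802-5p and miR-193b-3p were at 0. A large part of these sums was miR-21-5p, also in the platelet list, with means of 56530 ± 3114 CPM in Control, 47114 ± 9723 in EPD and 89664 ± 54059 in LPD. The liver miRNA miR-122-5p had 14552 to 36997 CPM in LPD. The platelet and leukocyte lists share miR-223-3p, miR-150-5p and miR-342-3p, so the sums are not separate. The part of the listed miRNAs in the level of miR-191a-5p was not tested.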

How the data were processed

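The authors deposited raw counts of reads for 567 mature miRNAs in each of 9 serum libraries. The series matrix was used, and 0 of its values differed from the files of single libraries. A miRNeasy serum kit gave the RNA and a QIAseq miRNA kit the libraries, per the labels' protocols. The submitters' processing notes name mRatBN7.2 as the build. Which aligner and counting tool were used is not given in the sources used here. No source says whether the kit's molecular identifiers were used to collapse reads, so intervals and floors cover counting error only.

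Groups came from the sample titles, and nothing says that the samples of a group came from separate animals beyond the titles. The p-values then measure only the spread between these samples. The members and lists were chosen with earlier results of these data known. miRNAs were kept with filterByExpr (minimum count 10, minimum total 15), leaving 294. The 3 groups were fitted together with edgeR 4.0.16 (robust quasi-likelihood, TMM, no covariates), with Benjamini-Hochberg adjustment over all 294 and a threshold of 0.05. Alternatives used DESeq2 1.42.0, limma 3.58.1 and other scalings, filters and sample sets. The fit was run on simulated counts with known fold changes, as a check of the code. These counts were drawn independently, with the same spread for all and as many miRNAs raised as lowered. The run therefore says nothing of repeated molecules in LPD. Log2 ratios of the members used a prior of 0.5 counts, and those of neighbouring pairs none. Molecules per library were estimated from how many miRNAs had no count.

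Named miRNAs are the members, the other products of the hairpins, the 5 most similar in pattern and the 4 nearest in abundance to each member, and the reference list. The miRNAs of neighbouring hairpins and the single markers of cell types were named after their values were seen. Sequences are from RefSeq tables, in which 513 of the 567 miRNAs were matched by name.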

Additional observations from a re-analysis of the deposited data

How the results depend on the processing

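Over the alternatives run, miR-191a-5p in LPD against Control stayed between -2.51 and -1.89 when 1 library was left out and between -2.45 and -2.04 otherwise, and in LPD against EPD between -3.38 and -2.57 and between -3.18 and -2.70. Between EPD and Control it ranged from 0.22 to 1.08 when 1 library was left out. miR-425-5p had no settled sign in LPD. It ranged from -0.32 to 0.12 against Control when 1 library was left out, and in LPD against EPD it moved from 0.11 to 0.39 with DESeq2 size factors, to 0.39 with DESeq2, to 0.43 over miRNAs with counts in every library and to 0.37 with totals that leave out miR-122-5p and miR-16-5p. Between EPD and Control miR-425-5p ranged from -0.35 to -0.0084 when 1 library was left out. With 1 library left out, miR-191a-3p in LPD against Control ranged from -2.31 to 0.055 (without LPD 1), and miR-425-3p in EPD against Control from -0.063 (without EPD 3) to 0.41, with no call in any of these.

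The number of miRNAs called in LPD against Control, 109, was 38 over miRNAs with counts in every library, 52 when only the 2 groups were fitted and 35 on counts per estimated molecule, an alternative chosen after seeing the data. In LPD against EPD, 108 became 35, 67 and 43 in the same order. In EPD against Control 0 became 1 with DESeq2 and 1 over miRNAs with counts in every library. Leaving out 1 library gave 93 to 140, 90 to 134 and 0 to 1. Of the reference list, 7 calls in LPD against Control became 2 on counts per estimated molecule. In LPD against EPD 9 became 5 there, 5 over miRNAs with counts in every library, 5 with limma-voom and 4 with only the 2 groups fitted. Leaving out 1 library gave 4 to 10 in both. With the replicate number as a block, 101 were called in LPD against Control and miR-191a-5p stood at -2.32, no 3p arm passed, and miR-186-5p and miR-200c-3p were lost. Same-numbered libraries did not deviate together (correlations of -0.089 to 0.063). Depth limits what can be said of the 3p arms and of both members in LPD. All LPD libraries were shallower than every other library and had more miRNAs without a count (349 to 393, against 65 to 122). The LPD group and low depth cannot be told apart here, and the part of depth in the level of miR-191a-5p was not tested.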
